A study of Mus musculus with 3 samples.

Results

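The 10 genes described here encode the interleukin 1 and interleukin 18 cytokines, their receptors and inhibitors, and the inflammasome parts that mature them. They are Il1a, Il1b, Il18, Il1rn, Il1r2, Il1r1, Il1rap, Il18r1, Nlrp3 and Casp1, chosen by symbol among the 32285 genes of the deposited mouse count matrices. The choice used no cut on a measured value, but it was made with earlier results of these data known. All 10 symbols matched 1 gene each. Their transcripts were read in white blood cells sorted by the surface protein CD45 from hearts of C57BL/6J mice aged 8 to 9 weeks. There was 1 droplet single-cell library for each of 3 groups, named Sham, MI and MI-E. MI is read here as myocardial infarction and Sham as its surgical control; MI-E is not spelled out in the labels. All 3 libraries carry the same surgical text, a ligation of the left anterior descending coronary artery under isoflurane, the Sham library included. The number of hearts in each library and the time after surgery are not given in the sources used here. With 1 library per group no test between groups was possible, so ratios compare libraries, and the 95% intervals in parentheses (exact Poisson for counts, exact binomial for shares) cover counting error only.

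As background, interleukin 1 alpha and interleukin 1 beta bind the same receptor, IL1R1, which signals together with the accessory chain IL1RAP toward NF-kB. Interleukin 1 beta and interleukin 18 are made as inactive precursors that caspase-1 cleaves once an inflammasome such as the one built around NLRP3 has formed, so the level of their messenger RNA does not measure the released cytokine. IL1RN occupies IL1R1 without signalling, and IL1R2 is a decoy that captures interleukin 1 and lacks the signalling domain. In the infarcted heart, neutrophils and monocytes are known as sources of interleukin 1 beta.

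On GRCm38 (GENCODE vM21), Il1a (ENSMUSG00000027399) lies at chr2:129299610-129309972 and Il1b (ENSMUSG00000027398) at chr2:129364570-129371139, both on the minus strand. Il1rn lies at chr2:24336853-24351494. Chromosome 1 holds 3 of the receptors on the plus strand, Il1r2 at chr1:40074079-40125231, Il1r1 at chr1:40225080-40317257 and Il18r1 at chr1:40465552-40500854. Il1rap lies on chromosome 16, Nlrp3 on 11, and Il18 and Casp1 on 9. Their promoters are shown because these 2 members differed most between the Sham and MI libraries within neutrophils. Each run is 250 bases before to 50 after the start, 5′ to 3′ on the gene's own (minus) strand, from RefSeq on GRCm38.p6. The Il1a window is chr2:129309923-129310222 and the Il1b window is chr2:129371090-129371389. Capitals mark matches to 5 searched letter patterns, on either strand: TATAAA, the AP-1 pattern TGANTCA, the PU.1 core GAGGAA, the NF-kB pattern of GGG and TTCC set 3 bases apart and the C/EBP pattern TTNNGCAA.
Il1a: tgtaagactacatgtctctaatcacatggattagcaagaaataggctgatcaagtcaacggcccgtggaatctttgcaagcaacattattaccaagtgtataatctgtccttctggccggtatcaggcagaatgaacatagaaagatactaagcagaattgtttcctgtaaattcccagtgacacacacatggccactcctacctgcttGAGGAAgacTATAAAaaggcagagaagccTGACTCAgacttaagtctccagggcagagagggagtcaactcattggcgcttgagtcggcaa
Il1b: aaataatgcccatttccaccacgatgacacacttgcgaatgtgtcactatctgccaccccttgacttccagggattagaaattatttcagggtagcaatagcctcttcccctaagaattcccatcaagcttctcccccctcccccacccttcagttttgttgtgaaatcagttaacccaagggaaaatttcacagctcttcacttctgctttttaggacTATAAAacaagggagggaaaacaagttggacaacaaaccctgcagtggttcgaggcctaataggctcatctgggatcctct
Both windows hold TATAAA, from position -32 in Il1a and from -31 in Il1b, counted from the start. The Il1a window also holds GAGGAA from -41 and TGACTCA from -12, and the matches do not overlap. Of 32851 promoters of this length, 13.6% hold TATAAA, 28.3% GAGGAA, 7.81% TGANTCA, 5.56% the NF-kB pattern and 10.8% TTNNGCAA. A match describes the letters only, and a pattern that was not found says only that these letters are not in the window.

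After filters, 10079 Sham, 8169 MI and 11989 MI-E cells remained, with median counts of 2825, 9460 and 7409 unique molecular identifiers (UMIs, counted transcripts) per cell. Between 26 and 45 cell barcodes were shared by each pair of libraries. Cells were clustered without the 10 genes and named from markers: neutrophil-like cells made up 4.21% of the Sham library, 4.41% of MI and 25.1% of MI-E, and monocyte-macrophage-like cells 38.9%, 68.1% and 41.6%. Clusters whose leading genes did not support a single name were left unnamed and held 10.7%, 20.1% and 19.7% of cells. Levels below are CPM, in which the UMIs of a gene are divided by all UMIs of the same cells and scaled to a common total. A ratio of at least 1.5 is called higher or lower, over genes that average at least 5 CPM in the 2 libraries compared. The neutrophil-like cells of Sham came mainly from cluster 9, led by Retnlg (401 cells), and those of MI and MI-E from cluster 19, led by Cstdc4 and G0s2 (341 and 2981 cells). No cluster held 50 or more neutrophils in both Sham and MI, so a change within 1 kind of neutrophil and an exchange of kinds cannot be told apart.

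Il1b, the gene of interleukin 1 beta, was highest in neutrophils of the MI and MI-E libraries. Its level in neutrophils was 1483 CPM (1401 to 1569) in Sham, 11455 (11227 to 11687) in MI and 10833 (10762 to 10905) in MI-E. MI and MI-E were close to each other and both far above Sham. The MI over Sham ratio was 7.72 (7.27 to 8.21), and the MI-E over MI ratio 0.946 (0.926 to 0.966). In neutrophils thinned to 1500 UMIs each, the median Sham cell held 1 Il1b UMI, against 14 in MI and 13 in MI-E. The share of thinned neutrophils with an Il1b UMI was 68.5%, 98.8% and 98.5% (72.2%, 96.4% and 98.6% before thinning), so in MI and MI-E nearly every neutrophil carried the transcript. The 18 dissociation-stress genes summed to 7629, 12371 and 12006 CPM in neutrophils, and their part in the Il1b level was not tested. In B cells, which are not known as an Il1b source, the thinned share was 1.68% in Sham and 19.1% in MI-E, at median depths of 2299 and 2166 UMIs against 1742.5 and 2108 in neutrophils.

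Within neutrophils the level was not uniform. The subgroup of 193 MI and 1138 MI-E cells held 13326 and 12879 CPM of Il1b, and another of 92 MI and 1013 MI-E cells held 7681 and 8540. These 2 subgroups stood in the same order in both libraries. The top 10% of thinned cells held 40.3% of the Il1b UMIs of Sham neutrophils, 28.8% in MI and 30.1% in MI-E. The corresponding cells of the monocyte-macrophage class held 70.3%, 66.4% and 51.4%, a more uneven spread over cells in all 3 libraries.

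**Figure D1:**
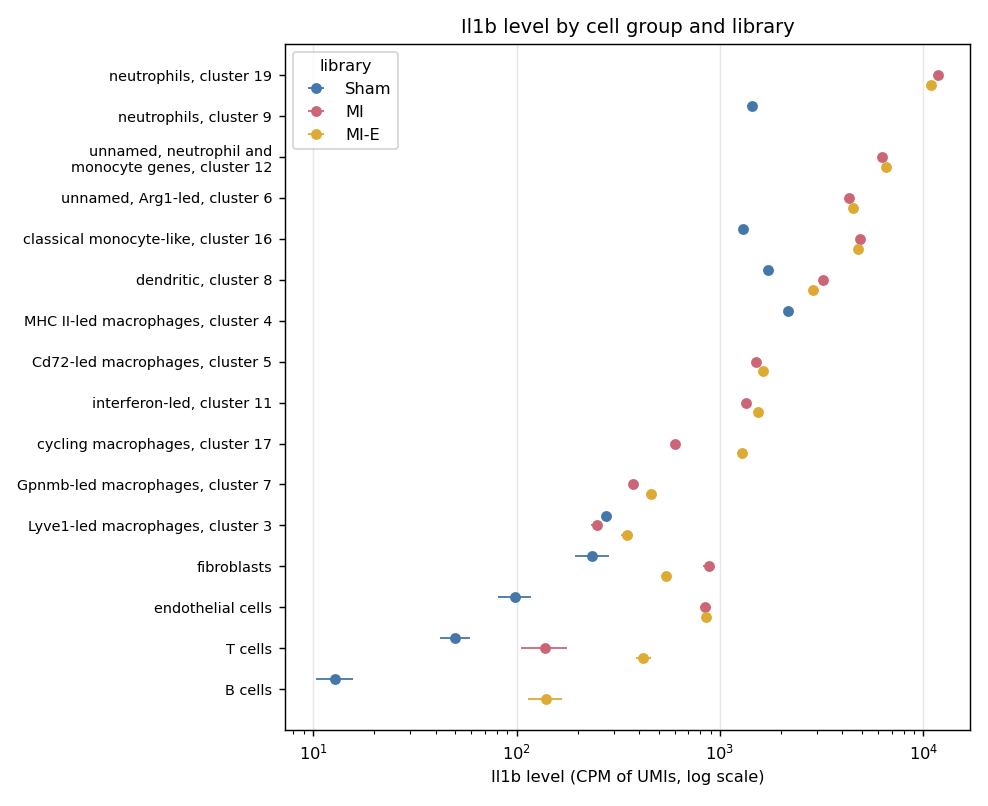
Il1b level in CPM of UMIs (log scale) by cell group and library, for groups with at least 50 cells; bars are exact Poisson 95% intervals and are often narrower than the points. Neutrophils of MI and MI-E (11726 and 10889 CPM in cluster 19) stand highest, and the classical monocyte-like cells of MI and MI-E stand above those of Sham.

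Among mononuclear phagocytes, the cells that carried Il1b differed by cluster. In classical monocyte-like cells (cluster 16, led by Ifitm6, Plac8 and Ly6c2) Il1b was 1295 CPM in Sham, against 4881 in MI and 4772 in MI-E. The MI over Sham ratio was 3.77 (3.59 to 3.96), with 278 Sham and 470 MI cells in the same cluster. In macrophages led by Lyve1, Cd163 and Folr2 (cluster 3), genes known from resident heart macrophages, Il1b was 275, 248 and 349 CPM, with a ratio of 0.902 (0.837 to 0.971) for MI over Sham. The monocyte-like cells were thus higher in MI and MI-E than in Sham, and the Lyve1-led cells were near their Sham level. The 18 dissociation-stress genes summed to 32536, 9241 and 10514 CPM in cluster 3, against 6048, 5803 and 5939 in cluster 16. Their part in this contrast was not tested. Of 16 neutrophil markers, 12, 14 and 16 were detected in cluster 16 and summed to 762, 1233 and 1656 CPM, against 162003, 55746 and 70512 CPM in the neutrophils themselves. Cxcr2, Mmp9, Ly6g and Stfa2l1 were at 0 in the Sham cells of cluster 16 and Ly6g and Stfa2l1 in those of MI. The part of these markers in the Il1b level was not tested.

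Several of the clusters with high Il1b had few Sham cells. An unnamed cluster led by Cxcl3, Arg1, Ppbp and Ptgs2 (cluster 6, with 13 macrophage markers detected) had 1 Sham, 1106 MI and 2022 MI-E cells and 4315 CPM of Il1b in MI and 4491 in MI-E. A second unnamed cluster that mixed neutrophil and monocyte genes (cluster 12) held 6225 and 6517 CPM. Cells led by Gpnmb and Fabp5 (cluster 7) held 372 and 459 CPM, and cells led by Cd72 and Ms4a7 (cluster 5) 1498 and 1636. In Sham, the MHC class II-led macrophages of cluster 4 held 2149 CPM (2117 to 2182).

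Over all monocyte-macrophage cells together, Il1b was 1044, 951 and 1834 CPM. The MI over Sham ratio of 0.911 (0.897 to 0.925) depended on which cells were counted: it was 1.62 with the unnamed macrophage clusters added. It was 3.27 with equal weight on the 2 clusters that held at least 50 cells of both libraries, clusters 3 and 16. Of these, Il1b was higher in cluster 16 and near its Sham level in cluster 3. No direction is therefore given for the class. The MI-E over MI ratio was 1.93 (1.91 to 1.95) over the class and 1.15 over 7 shared clusters with equal weight. It was 1.09 within cluster 5, 1.04 within cluster 6 and 0.978 within cluster 16. The same 18 stress genes summed to 25253, 5776 and 6059 CPM in these cells, highest in Sham, and their part in the result was not tested. Dendritic cells held 1717, 3203 and 2861 CPM of Il1b, with an MI over Sham ratio of 1.87 (1.77 to 1.97).

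Counted as sources, neutrophils held 4.52% of all Il1b UMIs in Sham (4.28 to 4.78), 6.29% in MI and 27.4% in MI-E. In Sham, 62.8% of the 26728 Il1b UMIs lay in cluster 4. In MI, 31.4% of 152414 lay in cluster 6, 14.6% in cluster 5, 13.4% in cluster 12 and 12.1% in cluster 16. In MI-E, cluster 6 held 30.02% of 322738 UMIs and cluster 16 held 17.1%. The level in neutrophils hardly differed between MI and MI-E, while neutrophils were 4.41% and 25.1% of cells. Neutrophils carry few UMIs, and when every cell was thinned to the same depth their share was 9.49%, 16.1% and 53.4%. Over all cells Il1b was 721, 1765 and 3219 CPM, and in such a sum more cells of a class and more RNA per cell cannot be told apart.

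**Figure D2:**
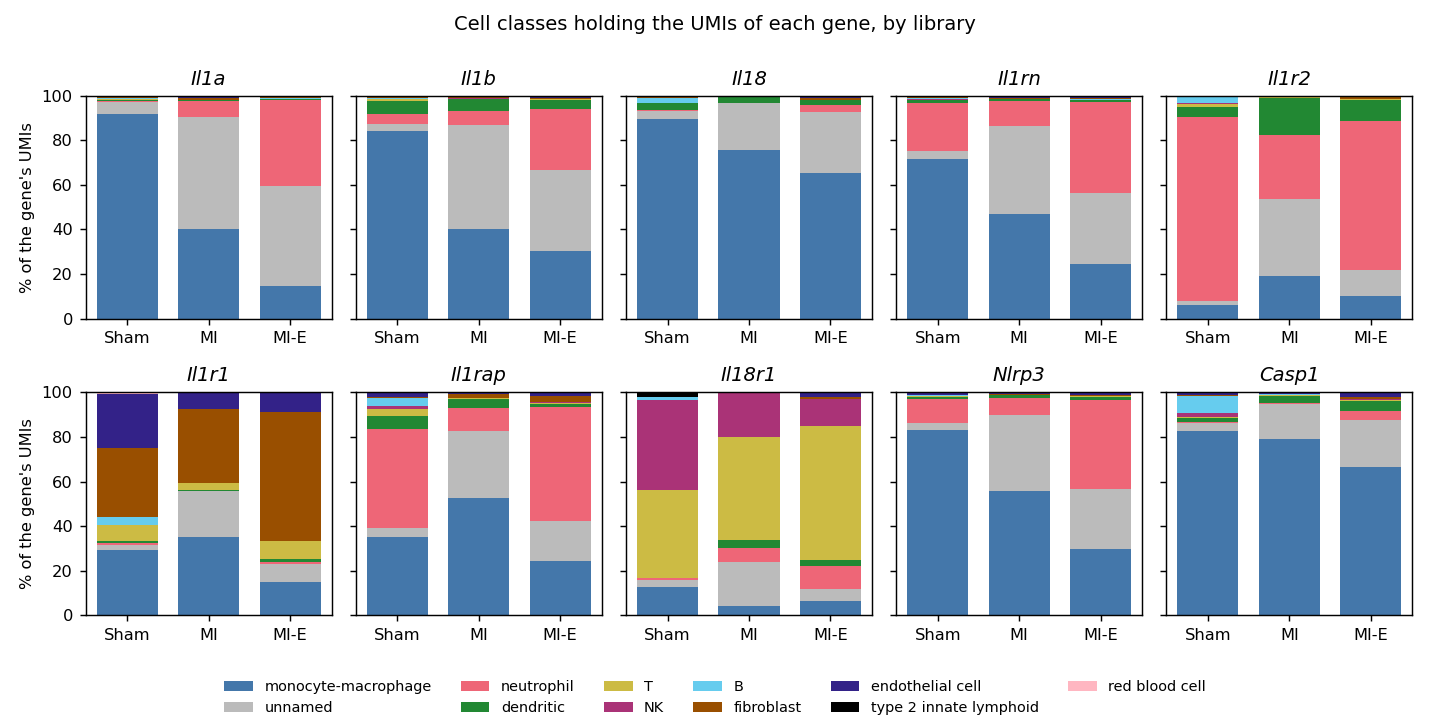
Percent of the UMIs of each of the 10 genes that lay in each cell class, in each library; each bar sums to 100%. The neutrophil share of Il1a, Il1b, Il1rn and Nlrp3 is largest in MI-E, and Il1r1 and Il18r1 lie mostly outside the myeloid classes in MI-E.

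Il1a, the gene of interleukin 1 alpha, which is active without cleavage, had another pattern. In neutrophils it was 11.04 CPM (5.05 to 21.0) in Sham on 9 UMIs, 408 (366 to 453) in MI and 524 (509 to 540) in MI-E. The MI over Sham ratio was 36.9 (19.2 to 81.4). The thinned share of neutrophils with an Il1a UMI was 1.53%, 34.7% and 35.7% (1.89%, 37.8% and 43.8% before thinning), so most neutrophils of MI and MI-E carried Il1b without a counted Il1a transcript. In monocyte-like cluster 16, Il1a was a single UMI in Sham (0.727 CPM), 36.3 CPM in MI and 41.7 in MI-E, a ratio of 49.9 (8.81 to 1986) for MI over Sham. Over the monocyte-macrophage class Il1a was 67.7, 30.1 and 30.7 CPM. That class ratio of 0.444 (0.415 to 0.476) became 1.62 with equal weight on the 2 clusters shared by both libraries, 3 and 16. The rise came from cluster 16, with its single Sham UMI. Lyve1-led cluster 3 did not show it, with 44.6, 37.2 and 27.8 CPM. Of Sham Il1a, 57.6% lay in cluster 4, which had 31 MI cells. Cluster 6 held 160 and 198 CPM in MI and MI-E.

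Il18, the gene of interleukin 18, was a transcript of monocytes and macrophages rather than of neutrophils. The monocyte-macrophage class held 89.6% of the Sham library's Il18 UMIs, 75.5% of those of MI and 65.2% of those of MI-E. In classical monocyte-like cells its level was 29.8 CPM (21.4 to 40.5), 58.8 (51.4 to 67.1) and 93.4 (87.9 to 99.1). Each library was above the one named before it, by a ratio of 1.97 (1.41 to 2.83) and then 1.59 (1.37 to 1.84). The interferon-led cluster 11 held 80.7 and 100 CPM in MI and MI-E. Neutrophils held 2.45 CPM on 2 UMIs, 5.98 on 5 and 13.8 on 113.

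Il1rn, the gene of the receptor antagonist, was also highest in neutrophils. In neutrophils it was 1804 CPM (1713 to 1898) in Sham, 3848 (3716 to 3983) in MI and 3865 (3822 to 3908) in MI-E. The MI over Sham ratio was 2.13 (2.01 to 2.27), and MI and MI-E were level. In monocyte-like cluster 16 it was 75.6, 235 and 365 CPM, a step at both comparisons (3.105, 2.53 to 3.84, and 1.56, 1.45 to 1.67). In Lyve1-led cluster 3, where Il1b was near its Sham level, Il1rn was 135, 216 and 262 CPM, with an MI over Sham ratio of 1.59 (1.46 to 1.74). Il1rn levels also differed in lymphoid cells: B cells held 3.53 CPM in Sham and 78.0 in MI-E, and T cells 7.52, 22.5 and 78.0. In the same B cells of Sham and MI-E, Il1b was 12.8 and 139 CPM and Nlrp3 5.22 and 38.3, while Casp1 was lower, 19.9 and 11.5. Macrophage markers in B cells summed to 1343 CPM in Sham and 2714 in MI-E. Neutrophil markers in cluster 3 summed to 131, 296 and 463 CPM. The part of stray transcripts in these Il1rn levels was not tested. Over all cells, each Il1b UMI was matched by 0.251 Il1rn UMIs in the Sham library, 0.185 in MI and 0.2397 in MI-E. Both transcripts often lay in the same cell: in thinned MI cells of cluster 6, 54.7% (51.3 to 58.1) of cells with Il1b also had Il1rn, against 36.3% of cells without Il1b. In thinned Sham neutrophils the share with Il1rn was 66.07% with Il1b and 66.02% without it.

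Il1r2, the decoy receptor, had its highest level among the named classes in neutrophils in all 3 libraries and did not follow Il1b there. Its level in neutrophils was 2351 CPM (2247 to 2458) in Sham, 1577 (1493 to 1665) in MI and 1828 (1799 to 1858) in MI-E. Sham was highest, and the MI over Sham ratio of 0.671 (0.625 to 0.720) lay just inside the 1.5-fold limit. All measured genes of neutrophils had a median log2 ratio of 0.35 for MI over Sham, and with a scaling that takes out such a shift (TMM) the Il1r2 ratio was 0.559, a lower call. Neutrophils held 82.5% of the Il1r2 UMIs of Sham, against 28.7% in MI and 66.7% in MI-E. In MI the unnamed clusters held more, 34.4%, and monocyte-macrophage cells held 19.1%. Dendritic cells came next among the named classes, with 111 CPM (90.6 to 135), 291 (270 to 312) and 444 (426 to 464). The MI over Sham ratio there was 2.61 (2.12 to 3.25) and the MI-E over MI ratio 1.53 (1.41 to 1.66). The dendritic subgroup led by S100a8 and Klk8 held 477 CPM in MI and 738 in MI-E, from 83 and 179 cells. Of 16 neutrophil markers, 10, 12 and 15 were detected in dendritic cells, with Ly6g at 0 in each library, and they summed to 90.3, 148 and 458 CPM. Their part in the Il1r2 level was not tested.

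In monocyte-macrophage cells Il1r2 stood at 6.83 CPM in Sham, with 13.7 in MI and 43.4 in MI-E. The MI-E over MI ratio was 3.17 (2.93 to 3.43), with 6.41 in cluster 7, 5.08 in cluster 3 and 2.28 in cluster 5. The MI-E value was close to that of cells not known to carry the gene: B cells of MI-E held 40.9 CPM (28.0 to 57.7) and fibroblasts 39.9 (33.8 to 46.8). At equal depth, 6.82% of monocyte-macrophage cells and 5.35% of B cells of MI-E had an Il1r2 UMI (26.5% and 9.78% before thinning, at median depths of 9374 and 2166 UMIs). The class level in MI-E was thus near the level in B cells of that library. Within the class the transcript was uneven: 10.7% (9.20 to 12.4) of thinned monocyte-like cells of cluster 16 had it, above the B cell share, and it was in 9.57% (8.48 to 10.7) of class cells with Il1b and in 3.25% of the rest. All 16 neutrophil markers were detected in the class and summed to 525, 585 and 1000.3 CPM.

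Il1r1, the signalling receptor, had its highest level among the named classes in fibroblasts, while monocyte-macrophage cells, at low levels, also held part of its UMIs. Fibroblast-like cells, a minor admixture in the CD45 sort, held 80.7 CPM (57.1 to 111) in Sham, 89.0 (72.6 to 108) in MI and 106 (95.8 to 117) in MI-E, on 38, 102 and 401 UMIs. The 3 intervals overlap, and the MI-E over Sham ratio was 1.31 (0.939 to 1.88). These cells were 0.605%, 0.857% and 1.41% of their libraries and held 30.9%, 33.0% and 57.7% of the Il1r1 UMIs. Monocyte-macrophage cells held 29.3%, 35.3% and 15.1% of them and the unnamed clusters 2.44%, 20.4% and 8.06%. Thinned, 9.26%, 12.7% and 15.9% of fibroblasts had an Il1r1 UMI (41.0%, 55.7% and 54.4% before thinning), against 0.110% of thinned Sham B cells. Endothelial cells held 26.1, 21.2 and 19.7 CPM, with overlapping intervals. Sham neutrophils held 1 Il1r1 UMI, those of MI 0 and those of MI-E 6, and monocyte-macrophage cells between 1.67 and 1.98 CPM. NK cells held no Il1r1 UMI in any library, which allows up to 3.46, 19.4 and 7.89 CPM (3 counts), and the 0 UMIs of MI neutrophils allow up to 3.59 CPM.

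T cells held 3.38 CPM of Il1r1 (9 UMIs), 22.5 (10 UMIs) and 47.0 (56 UMIs), an MI-E over Sham ratio of 13.9 (6.82 to 31.9). Of the 56 UMIs in MI-E T cells, 44 came from a subgroup of 77 gamma-delta T-like cells, which held 136 CPM (98.7 to 182). That subgroup had 8 cells in Sham, which held 9 Il1r1 UMIs, and 4 in MI, which held 1. In MI, 5 UMIs lay in a lymphoid subgroup of 14 cells led by histone and cycling genes. The difference between Sham and MI-E T cells thus goes along with their make-up, while most UMIs of MI lay outside the gamma-delta T-like subgroup. With so few Sham and MI cells, the level of the gamma-delta T-like subgroup could not be compared between libraries. At equal depth, 12.99% (6.41 to 22.6) of these MI-E cells had an Il1r1 UMI. The same cells held 219 CPM (171 to 276) of Il18r1, and 31.2% had a UMI at equal depth.

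Il1rap, the accessory chain, was highest in neutrophils, where Il1r1 was at most 6 UMIs in a library. Its level there was 228 CPM (197 to 263) in Sham, 126 (103 to 152) in MI and 164 (155 to 173) in MI-E. Sham stood above both, with an MI over Sham ratio of 0.550 (0.429 to 0.703). Il1rap and Il1r2 were thus both highest in Sham neutrophils, where Il1b and Il1a were lowest. Dendritic cells held 26.4, 14.7 and 9.05 CPM of Il1rap, and monocyte-macrophage cells 6.79, 8.18 and 12.01.

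Il18r1, the ligand-binding chain of the interleukin 18 receptor, lay mainly in lymphoid cells. NK cells held 92.4 CPM (73.3 to 115) in Sham, 64.7 (31.0 to 119) in MI, from 35 cells, and 63.1 (40.4 to 93.9) in MI-E, with overlapping intervals. T cells held 29.3 (23.2 to 36.6), 51.8 (32.8 to 77.7) and 99.9 (82.7 to 120). Of the 198, 50 and 198 Il18r1 UMIs of the libraries, T cells held 39.4%, 46.0% and 60.1% and NK cells 40.4%, 20% and 12.1%. Classical monocyte-like cells, in which Il18 was highest in MI-E, held 0, 0 and 1 UMI, and the counts of 0 allow up to 2.18 and 0.795 CPM.

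**Figure D3:**
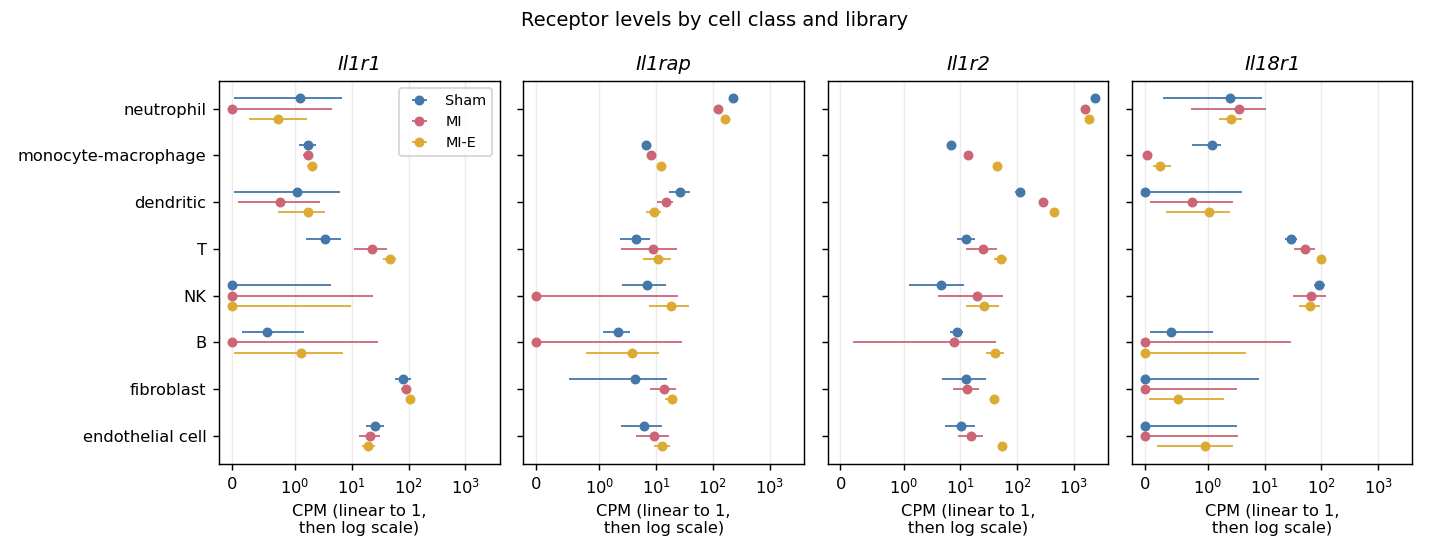
Levels of Il1r1, Il1rap, Il1r2 and Il18r1 (CPM of UMIs, linear to 1 and log above) in 8 cell classes, by library, with exact Poisson 95% intervals; classes with at least 30 cells in a library are drawn. Il1r1 is highest in fibroblasts (80.7 to 106 CPM), Il1rap and Il1r2 in neutrophils, and Il18r1 in NK and T cells.

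Nlrp3, the inflammasome sensor, followed Il1b in direction within neutrophils and monocyte-like cells. Neutrophils held 1345 CPM (1266 to 1427) in Sham, 3677 (3548 to 3809) in MI and 2980 (2943 to 3018) in MI-E, an MI over Sham ratio of 2.73 (2.55 to 2.93). Monocyte-like cluster 16 held 172, 548 and 425 CPM, a ratio of 3.18 (2.78 to 3.65). Both groups were highest in MI. Over the monocyte-macrophage class the levels were 387, 355 and 339 CPM and close to each other. Of thinned neutrophils with Il1b, 72.8% (66.4 to 78.5) in Sham, against 95.9% (92.6 to 98.03) in MI and 90.8% (89.6 to 91.9) in MI-E, also had Nlrp3. In Sham, 68.9% of neutrophils without Il1b had it too, and both transcripts were found in 163 of 327 cells.

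Casp1, the protease that cleaves the precursors, was mainly a mononuclear phagocyte transcript. The monocyte-macrophage class held 68.3 CPM (64.8 to 71.9), 40.7 (39.1 to 42.3) and 54.2 (52.2 to 56.2), with an MI over Sham ratio of 0.596 (0.558 to 0.635). The ratio was 0.702 in cluster 16 and 0.731 in cluster 3, in the same direction but within 1.5-fold. Neutrophils held 7.36 CPM on 6 UMIs, 15.5 on 13 and 21.9 on 179. At equal depth 0.612%, 2.02% and 3.21% of neutrophils had a Casp1 UMI (1.42%, 2.50% and 5.15% before thinning), while B cells had 2.78% in Sham and 1.67% in MI-E. The neutrophil share was below that of B cells in Sham. In MI-E it was the larger number, but the B cell share there rests on 299 thinned cells and the difference was not tested. Of thinned MI neutrophils with Nlrp3, 1.69% had a Casp1 UMI.

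Counted as a group, 5 of the 7 measured genes were higher and 1 was lower in neutrophils of MI than of Sham, where 41.5% of all measured genes were higher and 17.4% lower. The median log2 ratio was 1.09 for the measured members and 0.35 for all measured genes. In MI-E over MI neutrophils, 1 of 8 was higher, Il18, on 5 UMIs in MI, and 0 were lower, against 9.67% and 15% of all genes, with medians of 0.29 and -0.07. In monocyte-like cluster 16, 7 of 9 were higher in MI than Sham and 0 lower, against 19.2% and 16.9%, with medians of 0.96 and 0.02. Il1a passed the 5 CPM filter in that cluster only through MI. In MI-E over MI there, 3 of 9 were higher and 0 lower, against 4.74% and 5.77%. In cluster 3, 1 of 7 was higher and 0 lower for MI over Sham, against 21.5% and 13.7%, and for MI-E over MI 1 of 8 was higher (Il1r2) and 0 lower, against 10.7% and 4.71%. These counts were not compared between cell groups by a test, and the neutrophil and cluster 3 counts for MI-E over MI are near the share of all genes. The higher call of Casp1 in neutrophils has an interval that includes 1 (2.11, 0.749 to 6.77).

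**Figure D4:**
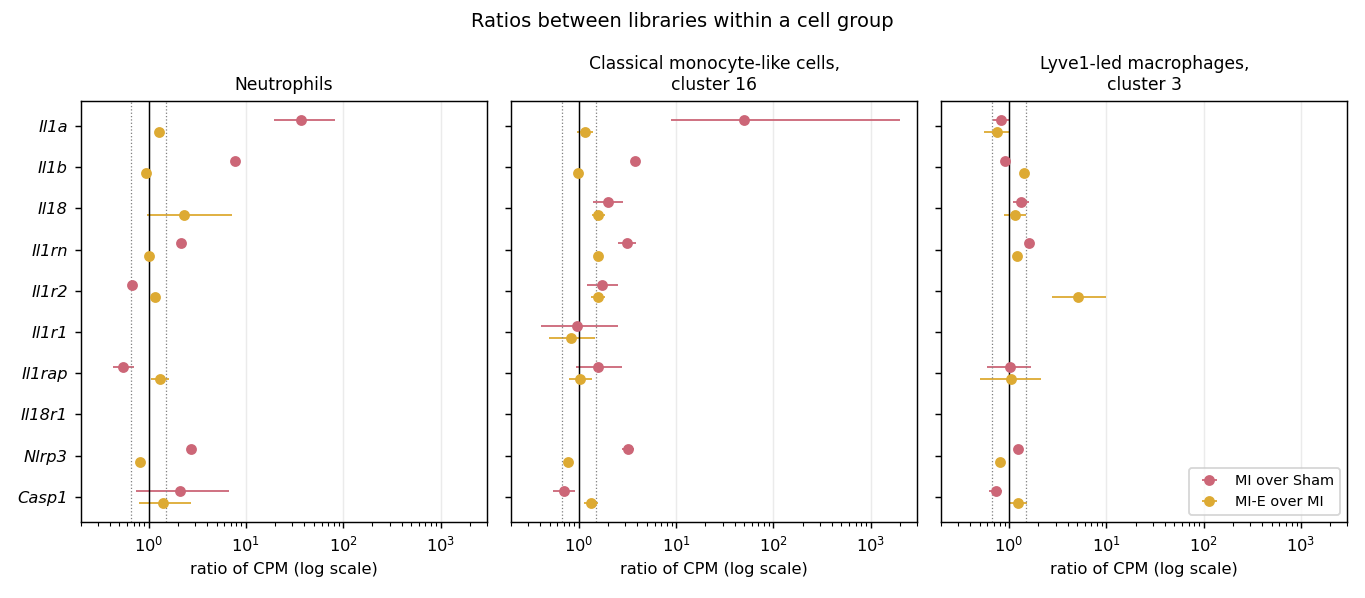
Ratio of CPM (log scale) for MI over Sham and MI-E over MI of each gene in neutrophils, classical monocyte-like cells and Lyve1-led macrophages, with exact 95% counting intervals; the dotted lines mark 1.5-fold, and genes that average under 5 CPM are not drawn. Il1a and Il1b lie right of the upper line for MI over Sham in the first 2 panels and not in the third.

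In the monocyte-macrophage class as a whole, 1 of 8 was higher in MI than Sham and 2 were lower, against 26.1% and 18.6%. The clusters that made up the class differed between Sham and MI, and their part in these counts was not tested. In MI-E over MI, 4 of 8 were higher and 0 lower, against 5.48% and 4.92%. Those 4 were Il1b, Il18, Il1rn and Il1r2. Within the clusters shared by both libraries, Il1b (1.15) and Il18 (1.35) were no longer called, while Il1rn was 1.56 and Il1r2 2.26. Over the class, Il1r2 was near the level in B cells. In dendritic cells, 3 of 8 were higher and 1 lower for MI over Sham, against 27.5% and 12.9%, and 1 was higher and 1 lower for MI-E over MI, against 9.27% and 5.95%. In T cells, with 73 cells in MI, all 8 measured genes were higher in MI than in Sham and 0 lower, against 37% and 15.9% of all genes. The intervals of Il1r2 (0.886 to 3.92) and Il1rap (0.469 to 6.59) include 1. Il1r1 (3.38 CPM in Sham, 22.5 in MI) and Il1rap (4.51 and 9.01) passed the 5 CPM filter only through MI. The filter left out Il1a, with 3 UMIs in Sham and 0 in MI, and Il18, with 2 and 1. The absence of lower genes thus depends in part on the filter. Macrophage markers in these T cells summed to 378 CPM in Sham and 561 in MI, and neutrophil markers to 609 and 24.8. The part of such myeloid transcripts in the count was not tested. The make-up of the T cells differed too: 2 subgroups of 255 and 275 Sham cells had 13 and 5 cells in MI. Of the Il1b UMIs in lymphoid cells of MI-E, 478 lay in a subgroup of 17 cells with myeloid transcripts, while T cells held 501 in all and NK cells 109.

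Other genes of the pathway, 67 in 7 lists by role, gave the surroundings. In neutrophils, 21 of 41 measured were higher and 4 lower in MI than in Sham, with a median log2 ratio of 0.74 against 0.35 for all genes. Of all measured genes 41.5% were higher and 17.4% lower. Of 8 genes known to be induced by interleukin 1, 7 were higher, led by the neutrophil-attracting chemokine Cxcl1 with 9.82 and 308 CPM, and the exception was Lcn2 with 1021 and 273. Among 11 measured inflammasome genes, Nlrp3 and Casp1 included, 6 were higher, led by the adaptor Pycard with 8.59 and 45.4 CPM, and 1 was lower, Txnip, with 474 and 133. Among 8 antagonists, decoys and brakes, Il1rn and Il1r2 included, 4 were higher, led by Tnfaip3, a brake on NF-kB, with 133 and 491 CPM, and Tollip was lower with a ratio of 0.631. These list counts also stand against 41.5% of all genes higher and were not tested. In the monocyte-macrophage class, 7 of 47 measured genes were higher and 17 lower in MI than in Sham, against 26.1% and 18.6% of all genes. There Pycard was again higher, with 97.1 and 368 CPM, and Icam1, an adhesion molecule, lower, with 313 and 55.6. The make-up of the class differed between Sham and MI, with 1576 and 31 cells in cluster 4. The 18 dissociation-stress genes summed to 25253 CPM in the class in Sham and 5776 in MI. The part of make-up and stress in these pathway counts was not tested. Il18bp, the soluble binder of interleukin 18, was 3.39, 13.4 and 25.5 CPM in that class.

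Genes whose levels ran most like those of 4 members over 23 class and library sums, which share libraries and depth, were named by Pearson's r of log2 CPM. For Il1b these were Basp1 (0.944) and Emilin2 (0.931), for Il1rn Ccr1 (0.968) and Ccrl2 (0.958), for Il1r2 Lmnb1 (0.935) and Ifitm1 (0.923), and for Il1r1 Lysmd2 (0.928) and Ryk (0.912).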

How the data were processed

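Counts of unique molecular identifiers per gene and cell were deposited by the authors for 3 droplet libraries (10x Genomics 3' v3.1, per the labels). Cell Ranger 5.0.1 and the mm10 build are named in the submitters' processing notes. The raw deposited counts were used. Cells were kept from 200 detected genes up and with mitochondrial UMIs no higher than 10%, and doublets called by Scrublet in each library were removed. Cells were clustered in scanpy 1.11.5 (Python 3.11.15) on 2000 variable genes without the 10 members, with 30 components and Leiden resolution 1, giving 22 clusters, which were named from marker lists that hold no member. UMIs were summed per class or cluster and library and given as CPM. Depth was 41140109, 98814001 and 104562768 UMIs over all deposited barcodes of Sham, MI and MI-E. For shares of cells, each cell was thinned to 1500 UMIs and shallower cells were left out. Intervals are exact Poisson or Clopper-Pearson at 95%, and a count of 0 allows up to 3 counts. They cover counting error only, since the libraries have no replicates. Ratios carry the exact interval of 2 Poisson counts. Promoters and loci were read from RefSeq (GRCm38.p6) and GENCODE vM21. All 10 members are named, and of each pathway list the genes with the highest and lowest ratio could be named. Subgroups of neutrophils, dendritic and lymphoid cells, and the gamma-delta T-like cells, come from clustering those classes again. Sums under 50 cells enter no ratio except where said. The alternatives were doublets kept, at most 20% mitochondrial UMIs, other resolutions, each library clustered alone, a mean over cells, TMM scaling (edgeR 4.0.16 in R 4.3.3), thinning, shared clusters, unnamed clusters added, a 2-fold limit and no filter on low genes. Shared clusters held at least 50 cells of both libraries and had equal weight, clusters 3 and 16 for MI over Sham in monocyte-macrophage cells. The members, lists and alternatives were chosen with earlier results of these data known. The fold calls and the intervals of ratios were tested on simulated Poisson counts, which hold no variation between libraries. Clustering, naming and thinning were not tested on simulated data.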

Additional observations from a re-analysis of the deposited data

Results flagged for a closer look

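For Il1a and Casp1, the class ratios lay on opposite sides of 1 in monocyte-macrophage cells and in neutrophils. For MI over Sham, the ratio of CPM of Il1a was 0.444 in monocyte-macrophage cells and 36.9 in neutrophils, and for MI-E over Sham it was 0.454 and 47.5. The monocyte-macrophage ratio of Il1a turned to 1.62 for MI over Sham with equal weight on shared clusters 3 and 16, a rise that cluster 3 did not show. It turned to between 1.18 and 1.53 for MI-E over Sham under 4 alternatives, so no direction is given for that class. For Casp1 the MI over Sham ratio was 0.596 in monocyte-macrophage cells and 2.11 (0.749 to 6.77) in neutrophils, the latter on 6 and 13 UMIs with an interval that includes no difference. With 1 library per group, the difference between the classes was not tested.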

How the results depend on the processing

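No paired analysis was possible because each group holds 1 library, and for the same reason no library could be left out. Over 831 alternative values of 86 level ratios, 628 stayed within the counting interval of the main value. Of the 831, 87 moved by more than 1.5 times, 85 crossed a ratio of 1 and 9 turned direction from a called value. The Il1b ratio of MI over Sham in monocyte-macrophage cells, 0.911, was 1.36 with doublets kept, 1.18 at 20% mitochondrial UMIs, 0.839 and 1.04 at Leiden resolutions 0.5 and 2, 1.58 with each library clustered alone, 1.02 with TMM, 0.988 thinned, 1.62 with unnamed clusters added, 0.974 as a mean over cells and 3.27 within shared clusters. The MI-E over MI ratio, 1.93, was in the same order 1.85, 1.73, 1.99, 1.93, 1.72, 1.88, 2.01, 1.66, 2.05 and 1.15. In neutrophils, the MI over Sham ratio of 7.72 was 6.44 with TMM, and the MI-E over MI ratio of 0.946 was 0.924 with doublets kept, 1.04 with TMM, 0.971 thinned and 0.992 as a mean over cells. The share of Il1b UMIs in neutrophils was 4.06%, 5.78% and 26.2% with doublets kept, 9.49%, 16.1% and 53.4% thinned, and 27.8% for MI-E clustered alone. At a 2-fold limit the members called in monocyte-macrophage cells were 1 lower for MI over Sham and 1 higher for MI-E over MI, and 0 were lower in neutrophils for MI over Sham. In neutrophils 2 were lower for MI over Sham, and 2 higher for MI-E over MI, both with no filter on low genes and with TMM. The share of all genes called was counted only at 1.5-fold with the 5 CPM filter, so these counts stand without a comparison. Il1a in monocyte-macrophage cells turned to 1.62 for MI over Sham within shared clusters, and for MI-E over Sham to 1.18 with doublets kept, 1.24 clustered alone, 1.24 with unnamed clusters added and 1.53 within shared clusters. In dendritic cells, clustering alone gave 0.996 for Nlrp3 (MI over Sham), 0.430 for Il1rn and 0.426 for Il1r1 (MI-E over Sham), and 20% mitochondrial UMIs gave 0.970 for Il1r1 (MI-E over MI). The cause was not tested. Il18, Il18r1, Il1r1 and Casp1 in neutrophils rest on few UMIs, which limits their precision.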
